A study of Bombyx mori with 4 samples.

Results

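ATAC-seq uses a transposase to cut and tag chromatin where the DNA is exposed, so that a peak of reads marks a stretch of open chromatin. The regions described here were chosen by presence and absence in peak lists. The peaks of all 4 libraries were merged where they overlapped by 1 bp or more, and a merged region was kept if peaks of brain 2, fat body 1 and fat body 2 overlapped it and no peak of brain 1 did. Of 130309 merged regions, 1766 met this rule, or 1.36%. That share is fixed by the rule and is not a finding. When each list was limited to its 11572 best peaks, the length of the shortest list, 95 regions met the rule.

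The 2 brain and 2 fat body libraries, all titled with the code L5D3, came from larvae of strain P50 of the silkworm Bombyx mori, all wild type. The labels give no treatment and no altered genotype. Whether the 2 libraries of a tissue stem from different larvae, and whether tissue was pooled, is not stated in the labels, so the spread between them may be technical. The insect brain is nervous tissue of neurons and glia and also houses neurosecretory cells that drive growth and moulting. The fat body takes the roles that liver and adipose tissue share in vertebrates, namely the storage of lipid, glycogen and protein and the secretion of haemolymph proteins. Open chromatin found in tissues so unlike each other is, as background, often at promoters of genes that many cells use and at other regulatory elements. Whether that holds for these regions was not analysed here, because no genome or gene models of the build used in the lists were at hand. For the same reason no region is given a gene, and no DNA sequence is printed. The labelled tissues could not be checked against marker genes.

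Brain 1 stands apart by a code. Its peak names hold the stage code 5L-4D, whereas the code is 5l3d in the names of brain 2 and fat body 1 and L5D3 in those of fat body 2. Every region here is defined by its absence from brain 1, while brain 2, of the same tissue, holds a peak in each. Library and possibly day cannot be told apart in that absence. Fat body 1 had by far the longest deposited list, at 107057 peaks with a median width of 166 bp. Brain 1 had 36420 peaks (425 bp), fat body 2 had 14752 (637 bp) and brain 2 had 11572 (491 bp). Read depth is unknown. Missing from a list means that no peak passed the authors' threshold there, not that the chromatin was closed.

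The first question was how strong these regions were in each list that held them. A peak's strength was its percentile by −log10 q within its own list, with 100 the strongest, and a region took the strongest of its peaks. In brain 2 the 1766 regions had a median percentile of 57.1 (95% interval of the median 55.1 to 59.3) and spread from 0.0259 to 99.99, and 11.4% lay in the top 10% of the list. In fat body 2 the median percentile was 62.0 (59.9 to 64.0), and 14.6% lay in the top 10%. In fat body 1 the median was 43.4 (40.9 to 45.3), and 4.25% lay in the top 10%. The regions thus sat a little above the middle of the brain 2 and fat body 2 lists and a little below the middle of fat body 1.

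The distribution over the fat body 1 list was nearly flat at its weak end and thinned out at its strong end. With the list in 10 equal parts, each of the 7 weakest parts held between 10.2% and 12.5% of the regions. The next 2 parts held 160 and 106 regions, and the strongest part held 75. In fat body 2 the shares ran the other way, with 3.57% in the weakest part and 14.6% in the strongest. In brain 2 they lay between 6.23% in the weakest part and 14.1% in the part before the strongest.

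**Figure D1:**
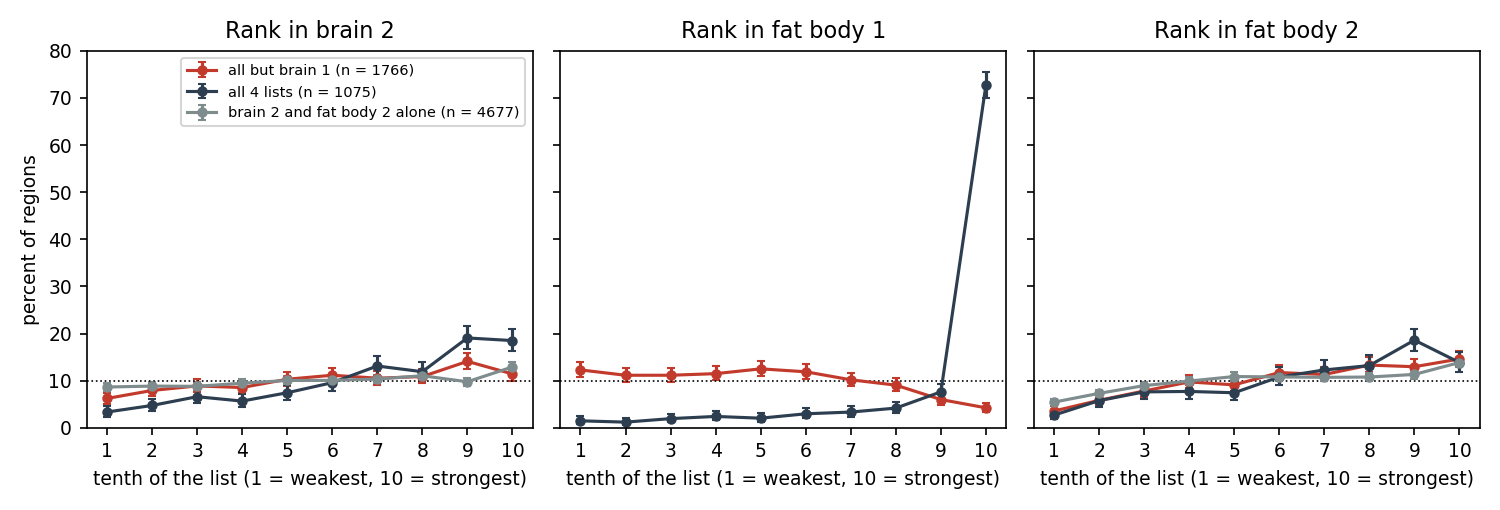
Percent of regions (y axis) in each of 10 equal parts of the brain 2, fat body 1 and fat body 2 lists by −log10 q (x axis, 1 = weakest). Points are shares with exact binomial 95% intervals, and the dotted line marks 10%; in fat body 1 the strongest part holds 4.25% of the regions found in all but brain 1 and 72.7% of those found in all 4 lists.

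For comparison, 1075 regions were found in all 4 lists, 2013 in both fat body lists alone, and brain 2 with fat body 2 alone held 4677. Against the regions of all 4 lists, the contrast lay in fat body 1. Of the regions in all but brain 1, for short those without brain 1, 75 of 1766 (4.25%, 3.35 to 5.29) were in the top 10% of fat body 1, against 782 of 1075 (72.7%, 70.0 to 75.4) of those in all 4. The median fat body 1 percentile was 43.4 without brain 1 and 97.8 in all 4. Regions of both fat body lists alone, which also lack brain 1, lay between, with 28.2% (26.3 to 30.2) in the top 10% and a median of 59.5 (57.0 to 61.6). The median of the 1766 regions was lower than that of all 4 lists on each of the 28 long sequences taken singly. In brain 2 the medians were 57.1 and 69.6, and in fat body 2 they were 62.0 and 67.1. Against regions held by brain 2 and fat body 2 alone, the strength in those 2 lists differed little, with medians of 57.1 and 54.0 in brain 2 and 62.0 and 57.2 in fat body 2. These differences were not tested, since the lists chose the regions and regions of 1 library are not replicates. The intervals cover counting over regions only.

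Strength in brain 2 went with strength in fat body 2, and neither went with strength in fat body 1. Across the 1766 regions Spearman's rho of the percentiles was 0.68 for brain 2 with fat body 2. With fat body 1 it was 0.01 for brain 2 and 0.05 for fat body 2. In the 1075 regions of all 4 lists these values were 0.34, 0.21 and 0.49, so that there the pair of the same tissue had the highest. In the 4677 regions held by brain 2 and fat body 2 alone the first value was 0.71. These are descriptions across regions that share their libraries, and no p is given. Of the 1766 regions, 360 were above the middle of all 3 lists, 686 of 2 lists, 434 of 1 list and 286 of none. Regions above the middle in brain 2 and fat body 2 but not in fat body 1 numbered 508. In the top 10% of both brain 2 and fat body 2 there were 158 regions, and 3 were in the top 10% of all 3 lists.

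The authors' fold enrichment had a median of 3.79 in fat body 1, 6.22 in brain 2 and 10.3 in fat body 2. These folds belong to separate libraries and are not compared. Fold and −log10 p together fix the number of reads piled up at a summit and the local background. In brain 2 the pile-up of the 1757 regions it could be found for ran from 8 to 227 reads with a median of 27, on a median background of 3.45. In fat body 1 it ran from 11 to 253 reads with a median of 33, on a background of 8.28 (1762 regions). In fat body 2 it ran from 12 to 251 reads with a median of 47, on a background of 4.04 (1687 regions). Over the whole lists the median pile-ups were 27, 35 and 41 reads in brain 2, fat body 1 and fat body 2, and the median backgrounds 4.08, 8.36 and 4.14. The fat body 1 peaks in these regions were thus close to the usual fat body 1 peak in reads and in background. The regions whose −log10 p was too high for the search, 79 in fat body 2, 9 in brain 2 and 4 in fat body 1, are left out of these values.

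The width of the regions was the next measure. It ran from 251 to 4169 bp, with a median of 743 bp (731 to 753) and a middle range of 591 to 881 bp, and 71 regions (4.02%) reached 1500 bp. The regions of all 4 lists had a median of 902 bp (878 to 936), and those of brain 2 and fat body 2 alone 636 bp (626 to 644). The median over the single long sequences ran from 670 to 819 bp. It was below that of the regions of all 4 lists on 27 of the 28 sequences, and above that of brain 2 and fat body 2 alone on 27. A merged region can only widen with each further list, and its part in both differences was not tested.

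The peaks of brain 2 and fat body 2 made up the breadth of these regions, and fat body 1 marked a part of them. Fat body 2 peaks covered a median of 95.7% of a region and brain 2 peaks 88.4%, while fat body 1 peaks covered 26.8%. The strongest peak had a median width of 673 bp for fat body 2, 621 bp for brain 2 and 174 bp for fat body 1. In the regions of all 4 lists the covered shares were 43.5% for fat body 2, 58.2% for brain 2 and 49.6% for fat body 1, with brain 1 at 98.0%. In regions of all lists but fat body 1, which hold brain 1 too, brain 1 covered 49.7%, brain 2 65.4% and fat body 2 71.4%. In 780 of the 1766 regions (44.2%) a fat body 1 peak reached beyond the brain 2 and fat body 2 peaks, by a median of 86.5 bp. All 3 pairs of lists overlapped directly in 1621 regions (91.8%). Brain 2 and fat body 2 overlapped directly in 1765, fat body 1 and fat body 2 in 1736, and brain 2 and fat body 1 in 1652.

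Summits, the points of highest pile-up, show whether the libraries marked the same spot. The summits of brain 2 and fat body 2 lay a median of 101 bp apart (94 to 110), and within 100 bp in 878 regions (49.7%). The summits of fat body 1 and fat body 2 lay 145 bp apart (136 to 156), with 688 regions (39.0%) within 100 bp. Those of brain 2 and fat body 1 lay 182 bp apart (170 to 195), with 543 regions (30.7%) within 100 bp. The closest pair was the pair of different tissues and the same replicate number, but the order turned with equal list lengths. In the 95 regions found then, fat body 1 and fat body 2 were closest, at 49 bp (38 to 70), with brain 2 and fat body 2 at 82 bp (69 to 128). The distance of brain 2 and fat body 2 was shorter than that of brain 2 and fat body 1 on all 28 long sequences, and shorter than that of the 2 fat body libraries on 25.

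All 3 summits fell within 100 bp of each other in 300 regions (17.0%, 15.3 to 18.8), and they spanned a median of 246 bp. In the regions of all 4 lists the same 3 summits did so in 427 of 1075 (39.7%, 36.8 to 42.7) and spanned 128 bp. The fat body 1 summit was the middle one of the 3, or level with it, in 20.8% of the regions without brain 1. The brain 2 summit was so in 35.1% and the fat body 2 summit in 45.1%. In the regions of all 4 lists the fat body 1 summit was in the middle in 33.4%. An identical summit base was rare: 4 regions for brain 2 and fat body 2, 6 for brain 2 and fat body 1, and 7 for the 2 fat body libraries.

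The fat body 1 summit stood farther from that of fat body 2 without brain 1 than in the regions of all 4 lists, 145 against 45 bp in the median, and did so on all 28 long sequences. In regions of both fat body lists alone the distance was 80 bp (72 to 86). Regions without brain 1 were also weaker in fat body 1, with a median percentile of 43.4 against 97.8 in all 4 lists. In the 75 of them in the top 10% of fat body 1 the distance was 42 bp (30 to 55), close to that of all 4 lists. The part of fat body 1 strength in the difference was not tested. Wider regions leave more room for summits to part, so regions of like width were set side by side. At 300 to 499 bp the medians were 91.5 bp without brain 1 (n = 232) and 43 bp in all 4 lists (n = 47). At 500 to 699 bp they were 113 bp (n = 495) and 36 bp (n = 222). At 700 to 899 bp they were 142 bp (n = 613) and 42 bp (n = 263), and at 900 to 1199 bp 329 bp (n = 257) and 49 bp (n = 298). The distance thus widened with the region in the first group and stayed between 36 and 49 bp in the second. The width matched on is partly set by fat body 1 itself, whose peak reached beyond the other peaks in 44.2% of the regions without brain 1. A far fat body 1 summit and a wide region are therefore partly tied by construction. In all 4 lists brain 1 covered a median of 98.0% of the width, so the 2 groups are not matched alike. The distance of brain 2 and fat body 2 differed less, for example 125 bp without brain 1, 68 bp in all 4 lists and 117 bp in brain 2 and fat body 2 alone at 700 to 899 bp.

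**Figure D2:**
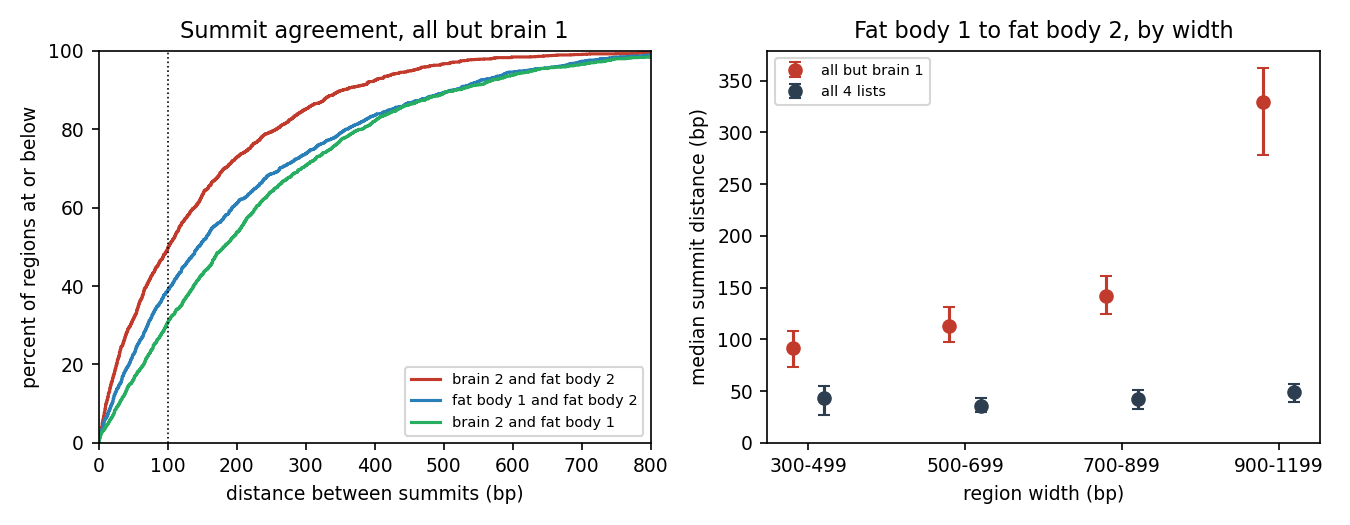
Left, cumulative percent of the 1766 regions (y axis) by the distance between the summits of a pair of libraries (x axis, bp), with 100 bp dotted. Right, median distance between the fat body 1 and fat body 2 summits (y axis, bp) in 4 width classes, with exact 95% intervals of the median: 91.5, 113, 142 and 329 bp without brain 1, and 43, 36, 42 and 49 bp in all 4 lists.

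Along the span of the brain 2 and fat body 2 peaks, the fat body 1 summit had no favoured part. This is a separate measure from its distance to the fat body 2 summit, which was within 100 bp in 39.0% of the regions. When the span of the brain 2 and fat body 2 peaks was divided into 5 equal parts, the parts held 16.0%, 15.3%, 17.8%, 15.6% and 17.2% of the fat body 1 summits in order, and 321 summits (18.2%) lay outside the span. The middle part, at 314 regions (16.0 to 19.6%), did not stand out from the outer ones beyond the intervals. The fat body 1 summit lay inside a fat body 2 peak in 1411 regions (79.9%) and inside a brain 2 peak in 1270 (71.9%), and in neither in 323 (18.3%).

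Regions with a strong fat body 1 peak differed from the rest in their summits. In the 75 regions whose fat body 1 peak was in the top 10% of its list, the fat body 1 and fat body 2 summits lay a median of 42 bp apart (30 to 55), and 70.7% were within 100 bp (59.0 to 80.6). In the other 1691 regions the median was 149 bp (139 to 159), and 37.6% were within 100 bp (35.2 to 39.9). The distance of brain 2 and fat body 1 moved less, with medians of 163 bp (127 to 259) and 182 bp (170 to 195). In these 75 regions the median fat body 1 fold, which goes with the strength they were split by, was 9.89, against 3.74 in the rest. Their median width, 764 bp, and their median brain 2 percentile, 54.2, were close to the 741 bp and 57.3 of the rest.

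The regions were also split into 4 equal parts by fat body 1 percentile. From the weakest part to the strongest, the median distance of fat body 1 and fat body 2 was 149, 152, 155 and 126 bp. The median width was 709, 746, 748 and 774 bp. The median brain 2 percentile was 56.7, 57.3, 56.1 and 59.2, and that of fat body 2 was 58.5, 64.4, 57.3 and 66.5. The distance of brain 2 and fat body 2, which fat body 1 does not enter, was 108, 104, 116 and 79 bp (95% interval of the last 69 to 94). The share with more than 1 fat body 1 peak was 3.62% (2.08 to 5.81) in the weakest part and 14.1%, 12.5% and 14.9% in the others. The median fat body 1 peak width, which goes with strength, was 137, 162, 192 and 224 bp.

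The number of fat body 1 peaks in a region was 1 in 1567 cases (88.7%), 2 in 194 and 3 in 5 (0.283%), or 1970 peaks in all. Brain 2 and fat body 2 each had more than 1 peak in 4 regions. More than 1 fat body 1 peak was thus held by 11.3% (9.83 to 12.8), against 25.2% (22.6 to 27.9) of the regions of all 4 lists. Those of all 4 lists were also wider. Per kb of region the order was the other way, at a median of 1.42 fat body 1 peaks (1.39 to 1.45), against 1.34 (1.32 to 1.39) in all 4 lists. Both classes require a fat body 1 peak, and 88.7% and 74.8% of their regions held exactly 1. In those the value per kb follows from width alone, so it says little about peak density. The share with more than 1 fat body 1 peak was 2.11% with equal list lengths and 17.5% when peaks up to 200 bp apart were merged. Exactly 1 peak of each of the 3 lists was found in 1562 regions. Regions with more than 1 fat body 1 peak were wider, at a median of 846 bp (807 to 886) against 730 bp (715 to 742). Their fat body 1 percentile was also higher, at 51.4 (46.9 to 57.0) against 42.2 (39.8 to 44.4), though the strongest of several peaks is taken there. Their brain 2 and fat body 2 summits lay 152 bp apart, against 97 bp in regions with 1 fat body 1 peak.

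Neighbouring fat body 1 summits within a region lay between 181 and 1416 bp apart, with a median of 498 bp (447 to 522) over 204 pairs. The gap between the peaks themselves was never under 95 bp and had a median of 278 bp. The settings of the peak calling are not given, so whether nearer peaks were joined before listing is not known. The shortest peak in the fat body 1 list was 94 bp.

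Of the regions with several fat body 1 peaks, the first by rule was on BHWX01000011.1 from 4398095 to 4399753. Its 3 fat body 1 peaks had summits at 4398132, 4398800 and 4399530 and folds of 5.02, 5.34 and 7.79. The brain 2 and fat body 2 summits, at 4398794 and 4398785, stood beside the middle one of these and 736 and 745 bp from the strongest. The second, on BHWX01000014.1 from 6856381 to 6857798, had fat body 1 folds of 8.04, 4.24 and 4.60 and was weak in brain 2, at percentile 6.56. The third, on BHWX01000018.1 from 8410927 to 8412137, had fat body 1 folds of 4.01, 3.49 and 5.71 and was at percentile 27.4 in brain 2 and 19.0 in fat body 2.

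To see fat body 1 around such regions without requiring it, all 6443 regions present in brain 2 and fat body 2 and absent from brain 1 were taken, with or without a fat body 1 peak. Within 250 bp of the fat body 2 summit they had 0.415 fat body 1 summits per kb (1336 summits). From 2 to 5 kb away they had 0.216 per kb (8335 summits). The density was thus 1.92 times as high at the summit as in the flanks. This ratio depends on leaving out the regions with brain 1, of which 85.5% held a fat body 1 peak. Over all 7701 regions of brain 2 and fat body 2, with or without brain 1, the densities were 0.590 and 0.203 per kb, a ratio of 2.90. In the 1766 regions, where a fat body 1 peak was required, the densities were 1.47 and 0.176 per kb. In the regions of all 4 lists they were 1.74 and 0.126 per kb. The flank density was higher around the regions without brain 1 than around those of all 4 lists. Both densities were below the 0.216 per kb of the 6443 regions, and below the 238 peaks per Mb of fat body 1 over all sequences.

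Brain 1 peaks were absent from the regions by the rule and present in the flanks. From 2 to 5 kb from the fat body 2 summit there were 0.0627 brain 1 summits per kb around the 1766 regions and 0.0425 per kb around the regions of all 4 lists. Within 250 bp of that summit, and outside the region itself, there was 1 brain 1 summit over all 1766 regions.

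**Figure D3:**
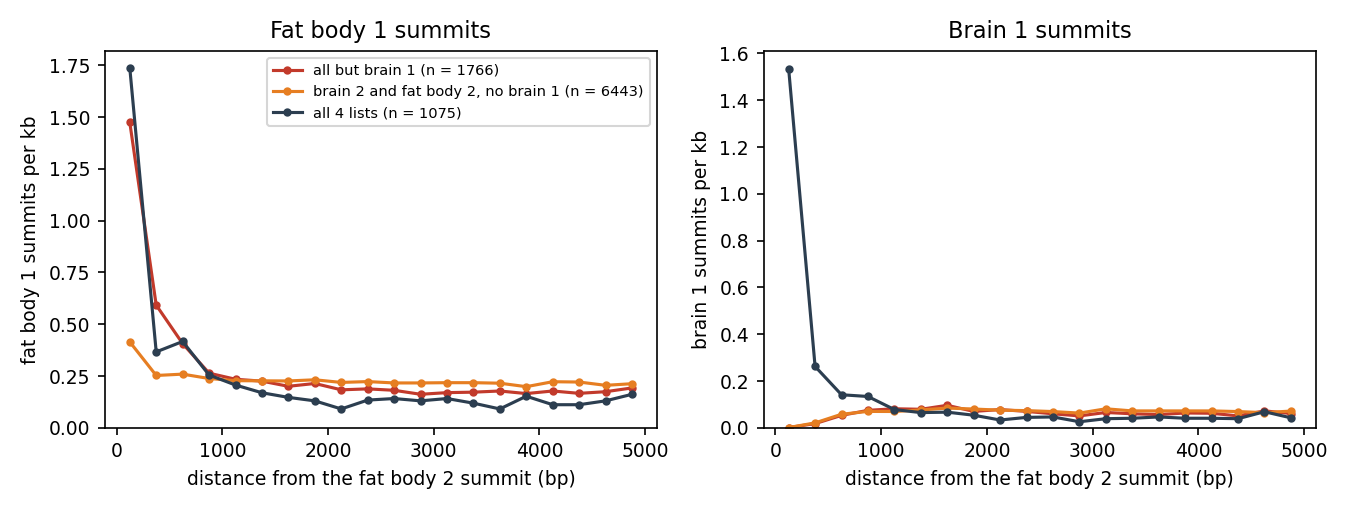
Summits per kb (y axis) of fat body 1 (left) and brain 1 (right) by distance from the fat body 2 summit (x axis, bins of 250 bp). Lines are the 1766 regions in all but brain 1, the 6443 regions of brain 2 and fat body 2 without brain 1 (of which they are part), and the 1075 regions of all 4 lists; fat body 1 stands at 1.47, 0.415 and 1.74 per kb within 250 bp.

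Of these 6443 regions, 1766 (27.4%, 26.3 to 28.5) held a fat body 1 peak. Where brain 1 had a peak too, 1075 of 1258 did (85.5%, 83.4 to 87.4). Broad regions held a fat body 1 peak more often. With the 6443 regions in 4 equal parts by the span of their brain 2 and fat body 2 peaks, whose medians were 391, 578, 719 and 883 bp, the shares were 20.1%, 25.7%, 29.5% and 34.5%. By brain 2 percentile the shares ran from 24.7% in the weakest part to 29.4% in the strongest, and by fat body 2 percentile from 23.3% to 29.8% in the part before the strongest and 29.2% in the strongest. A wider window meets more peaks whatever they are, and fat body 1 had 238 peaks per Mb over all sequences; its part in these shares was not tested.

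The nearest brain 1 peak lay a median of 4438 bp away (4100 to 4677), in 1761 regions; 5 regions were on sequences with no brain 1 peak. It was within 50 bp in 10 regions, within 100 bp in 19 (1.08%) and within 500 bp in 162 (9.17%, 7.87 to 10.6). For regions held by brain 2 and fat body 2 alone the share within 500 bp was 7.59% (6.85 to 8.39). Near misses were thus few. Those brain 1 peaks within 500 bp had a median percentile of 38.2 in their list (30.4 to 45.3), and the fat body 1 percentile of the 162 regions, 42.7, was close to that of the other 1604, 43.5.

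The regions just inside the rule, with a brain 1 peak within 50 bp, had a median width of 716 bp and median percentiles of 67.8 for brain 2, 40.0 for fat body 1 and 55.9 for fat body 2. The nearest brain 1 peaks were 6 bp from BHWX01000008.1 2179844 to 2180311, 9 bp from BHWX01000022.1 1895790 to 1896429 and 13 bp from BHWX01000002.1 3106220 to 3106926. Just outside the rule were 10 regions of all 4 lists that brain 1 overlapped by at most 50 bp. Their medians were 1166 bp in width and 60.2, 53.3 and 62.6 in the brain 2, fat body 1 and fat body 2 percentiles. That width takes in the brain 1 peak, so by construction it is not like that of the regions just inside. The smallest overlaps were 4 bp on BHWX01000017.1 from 7456654 to 7458538, 6 bp on BHWX01000017.1 from 7091612 to 7092576 and 9 bp on BHWX01000006.1 from 11044778 to 11046013. In fat body 1 both groups of 10 lay far below the bulk of the regions in all 4 lists, whose median percentile was 97.8.

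The 5 regions with the best mean percentile over the 3 lists show what the strongest cases look like. The first is the region with 3 fat body 1 peaks on BHWX01000011.1 given above, with folds of 22.1 (brain 2), 7.79 (fat body 1) and 39.1 (fat body 2). The second, on BHWX01000001.1 from 7756920 to 7758294 (1375 bp), had 38.7-fold, 9.97-fold and 45.5-fold enrichment in brain 2, fat body 1 and fat body 2. Its summits stood at 7757610, 7757618 and 7757616, all within 8 bp. The third, on BHWX01000009.1 from 16755368 to 16755759 (392 bp), had 11.3-fold, 14.2-fold and 20.5-fold enrichment, with summits within 34 bp.

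The fourth, on BHWX01000001.1 from 3006305 to 3008108 (1804 bp), had the highest fat body 1 fold of all 1766 regions, 31.5, with 16.2-fold enrichment in brain 2 and 16.1-fold in fat body 2, and its summits lay within 52 bp. The fifth, on BHWX01000022.1 from 7112384 to 7113238 (855 bp), had 33.9-fold, 7.07-fold and 42.8-fold enrichment in brain 2, fat body 1 and fat body 2, with summits within 35 bp. The nearest brain 1 peaks to the 5 lay 987, 3146, 2985, 2188 and 322 bp away. Taking the strongest peak of each list, summits met closely in all of these but the first. There the brain 2 and fat body 2 summits stood beside a weaker fat body 1 summit.

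A typical region looked different. Of those nearest the median of the mean percentile, 52.6, the first spanned 570 bp on BHWX01000015.1, from 13422363 to 13422932. Its folds were 4.90 (brain 2), 4.96 (fat body 1) and 10.6 (fat body 2), with the fat body 1 summit 242 bp from that of brain 2 and 139 bp from that of fat body 2. The second lay on BHWX01000022.1 from 14859361 to 14859895 (535 bp), with 7.03-fold, 3.58-fold and 8.83-fold enrichment in the same order. There the brain 2 and fat body 2 summits were 35 bp apart and the fat body 1 summit was 289 bp from that of fat body 2. In this second region fat body 1 stood off to the side. In the first, the fat body 2 summit lay between the others, 103 bp from that of brain 2.

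The weakest regions by mean percentile were BHWX01000014.1 7901391 to 7901918, with 3.41-fold, 2.58-fold and 4.49-fold enrichment in brain 2, fat body 1 and fat body 2, and BHWX01000018.1 2305356 to 2305866, with 3.39-fold, 2.65-fold and 3.45-fold. The widest were 4169 bp on BHWX01000027.1 from 9283699 to 9287867, 2360 bp on BHWX01000015.1 from 17602808 to 17605167 and 2348 bp on BHWX01000015.1 from 3428897 to 3431244. Each of the 3 widest held a single peak of each of the 3 lists. In the widest, the brain 2 and fat body 2 summits were 35 bp apart and the fat body 1 summit 768 bp from that of fat body 2. In the third widest, fat body 1 was 18 bp from the brain 2 summit but at percentile 0.122 of its own list.

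The regions were spread over all 28 long sequences, and their density differed between them. The long sequences held 1752 of the 1766 regions, or 3.94 per Mb of their reach, which is the end of the last peak in any list. Density was highest on sequences 28, 2, 26 and 24, at 7.46, 6.82, 6.63 and 6.57 per Mb. It was lowest on sequence 1, at 1.31 per Mb, with 27 regions over 20.6 Mb, and next lowest on sequence 10, at 1.99 per Mb. Sequence 1 held 1.53% of the regions (1.01 to 2.22), against 2.60% (1.74 to 3.74) of those in all 4 lists and 2.74% (2.29 to 3.25) of those in brain 2 and fat body 2 alone.

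All 4 lists were thin on sequence 1. Brain 2 had 16.4 peaks per Mb there and 42.9 on sequence 2, fat body 1 had 146 and 231, and fat body 2 had 18.8 and 59.3. Brain 1 had 65.2 peaks per Mb on sequence 1, its lowest of the 28, against 81.0 over all sequences. Of the regions in brain 2 and fat body 2 without brain 1, 17.4% (11.8 to 24.3) held a fat body 1 peak on sequence 1, the lowest of the 28 sequences, and 34.0% (27.7 to 40.7) on sequence 8, the highest. On sequence 1 the regions had a median fat body 1 percentile of 28.2 (12.5 to 40.7), and the fat body 1 and fat body 2 summits were 61 bp apart (24 to 127). With 27 regions these intervals are wide. Of the 5 regions with the best mean percentile, 2 lay on sequence 1.

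Shorter sequences carried more of these regions per Mb. Across the 28 sequences Spearman's rho of reach and regions per Mb was −0.79 (Pearson's r −0.76), and −0.77 without sequence 1. For regions held by brain 2 and fat body 2 alone it was −0.82, and for regions of all 4 lists −0.25. The peak lists behaved likewise, at −0.80 for all brain 2 peaks per Mb and −0.84 for all fat body 2 peaks, against −0.19 for fat body 1 and 0.37 for brain 1. The share of the brain 2 and fat body 2 regions without brain 1 that held a fat body 1 peak had a rho of −0.22 with reach. These are descriptions over sequences that share 4 libraries, with no p.

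**Figure D4:**
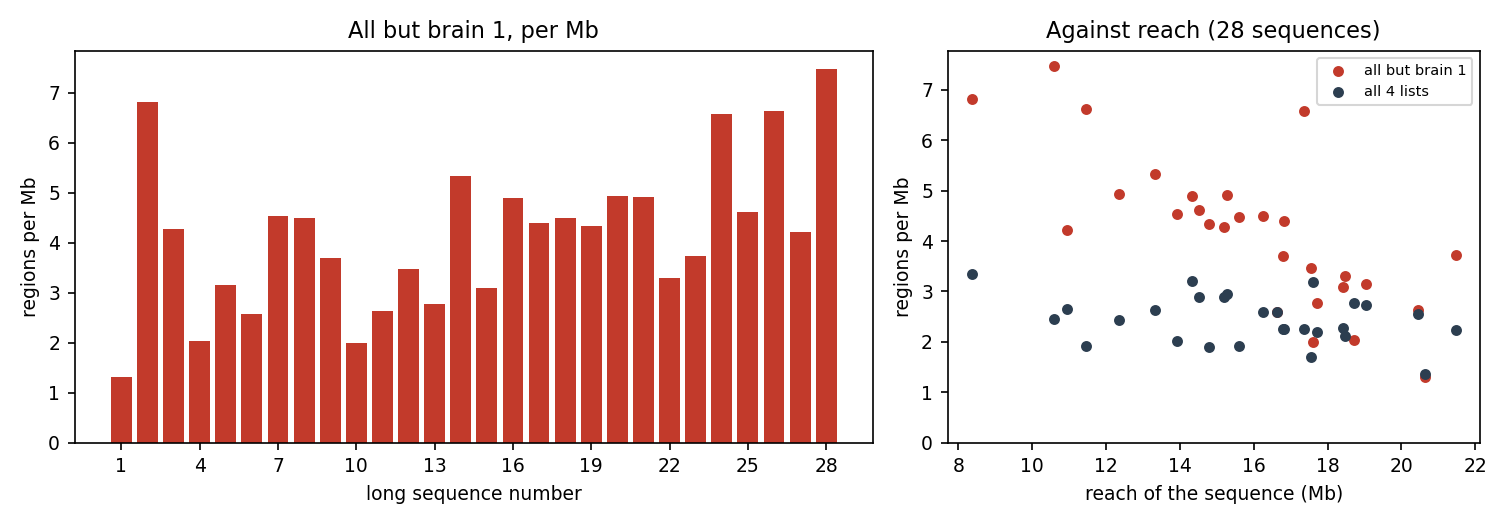
Left, regions found in all but brain 1 per Mb (y axis) on each of the 28 long sequences (x axis). Right, the same densities, and those of regions in all 4 lists, against the reach of the sequence in Mb; the first run from 1.31 to 7.46 per Mb and are higher on shorter sequences.

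Along the long sequences the regions were thinnest in the middle. With each sequence divided into 10 equal parts, the second and ninth parts held 13.1% and 12.5% of the 1752 regions, and the fourth to sixth held 8.28%, 7.88% and 8.11%. The end parts, at 9.70% and 9.76%, lay between. The same shape was found for regions held by brain 2 and fat body 2 alone, with 13.1% and 14.1% in the second and ninth parts and 6.42% in the fifth. Regions of all 4 lists did not have it, with 9.52% and 9.34% in the second and ninth parts and 10.3% in the fifth. Fat body 1 peaks as a whole were even, between 9.64% and 10.2% in every part, while fat body 2 peaks ran between 7.48% in the fifth part and 12.4% in the ninth.

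**Figure D5:**
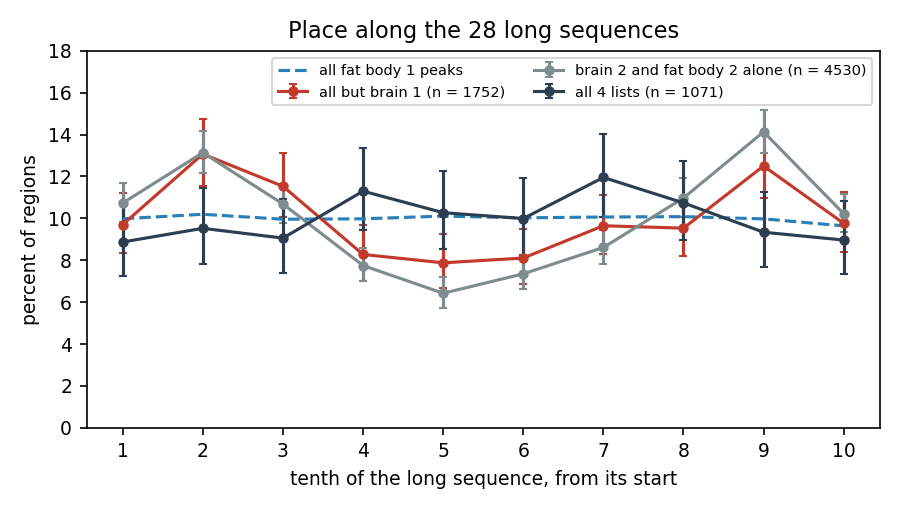
Percent of regions (y axis) in each of 10 equal parts of the long sequences from start to end (x axis), with exact binomial 95% intervals; the dashed line is all fat body 1 peaks. Regions found in all but brain 1 are at 13.1% in the second part and 7.88% in the fifth, whereas regions of all 4 lists are at 9.52% and 10.3%.

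Neighbouring regions lay far apart. The gap to the next region had a median of 148482 bp and ran from 340 to 2531716 bp, and 76 of 1724 gaps (4.41%) were at most 10 kb.

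How many regions there were depended on the lists more than on how peaks were joined. Without brain 1, 2841 regions were in the other 3 lists, so that 62.2% of them (60.3 to 63.9) lacked a brain 1 peak. Of all 7701 regions of brain 2 and fat body 2, with or without fat body 1, 6443 lacked one, which is a larger share. Without fat body 1 the class would hold 6443 regions, without brain 2 3779 and without fat body 2 1950. The threshold that a peak had to pass differed too: the lowest −log10 p was 6.69 in fat body 2 and between 5.01 and 5.03 in the others. The weakest pile-up listed in brain 1 was 9 reads.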

How the data were processed

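Per the labels' protocols, nuclei (50000 per library) were tagmented with a pA-Tn5 transposome. The tools named in the submitters' processing notes are MACS2 2.1.0, deepTools 3.3.0, Picard, Bowtie2 and Trim Galore. Their settings and the build were not given in the sources used here. Each library has 1 deposited list of peaks, not pooled, with position, summit, fold enrichment, −log10 p, −log10 q and a score. In fat body 2 the deposited score is −log10 q times 10; elsewhere it is −log10 p times 10. The deposited fold ratio, −log10 p and −log10 q were used only within a list. Fat body 2 names carry a mapping quality of 20.

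Peaks were merged as stated, with Python 3.11.15, pandas 2.3.3 and SciPy 1.17.1. A region's summit in a list is that of its peak with the highest −log10 q. Percentiles give ties their mean rank. Shares have exact binomial (Clopper-Pearson) and medians exact order-statistic 95% intervals, over regions only. To recover pile-ups, the fold was read as the pile-up plus 1 over the background plus 1, and the p-value as a Poisson upper tail; for −log10 p under 250, the search ran over pile-ups of 2 to 1000, with a relative tolerance of 2e-05, and 100% of searched peaks had exactly 1. No test was made, since presence in the lists chose the regions; an exchange of labels between 2 libraries and 2 cannot give a p below 0.333. The steps were tested on simulated peaks. The members, comparisons and rules were chosen with earlier results of these data known. Named regions are the 5 best, 2 median and 2 lowest by mean percentile, the 3 with most fat body 1 peaks, the 3 widest and 3 on each side of the rule. Coordinates are those of the lists, with starts made 1-based. Sequences numbered 1 to 28 are called long, and higher numbers unplaced. Alternatives are a stricter q, equal list lengths, 50% overlap, merging over 200 bp, a brain 1 distance of 500 bp, no sequence 1, closest summits and leaving out each library.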

Additional observations from a re-analysis of the deposited data

How the results depend on the processing

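Of 79 values under 12 alternatives, 55 stayed within the 95% interval of the value reported, or within 1.5 times for a count, and 24 moved. With the 11572 best peaks per list there were 95 regions, median percentiles of 48.0 (fat body 1), 54.2 (brain 2) and 64.2 (fat body 2), summit distances of 82 bp (brain 2 and fat body 2), 162 bp (brain 2 and fat body 1) and 49 bp (fat body 1 and fat body 2), 2.11% with more than 1 fat body 1 peak and 3.16% with a brain 1 peak within 500 bp; by construction, fat body 1 loses the most peaks. With an overlap of 50% of the shorter peak, the median width was 721 bp, the summit distances with fat body 1 were 151 bp for brain 2 and 115 bp for fat body 2, and these shares were 8.55% and 11.1%; the cause was not tested. Merging peaks up to 200 bp apart gave 788 bp, 253 bp, 229 bp, 17.5% and 5.69% in the same order, since it joins fat body 1 peaks that do not overlap and sets brain 1 over 200 bp away. The closest pair of summits gave 165 bp for brain 2 and fat body 1 and 132 bp for the fat body libraries, by construction the shortest. The order of the 3 distances, shortest for brain 2 and fat body 2, held in every alternative but the equal list lengths. Leaving out 1 library gave between 1950 regions (fat body 2 left out) and 6443 (fat body 1 left out): a class with fewer conditions is larger by construction. The ratio of fat body 1 summits, chosen after the data were seen, was 1.92, and 1.83 around the brain 2 summit and 1.92 without sequence 1. No paired analysis was possible because no fit across libraries was made, a choice that follows from regions picked by presence; whether replicate numbers pair the libraries was not tested. Absence from a list may be lack of depth, which the lists do not give.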

Other observations

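The mirror class, 183 regions in all lists but fat body 1, also had its lone library of replicate 1 off to the side. Brain 1 summits there lay a median of 313 bp (253 to 353) from those of brain 2 and 350 bp (309 to 381) from those of fat body 2, while brain 2 and fat body 2 lay 87 bp apart (70 to 125). In the 1766 regions without brain 1, fat body 1 was the lone library of replicate 1, at 182 bp from brain 2 and 145 bp from fat body 2, and brain 2 and fat body 2 were 101 bp apart. In the 1075 regions with both libraries of replicate 1, brain 1 and fat body 1 summits were 42 bp apart (38 to 47), and on the same base in 142 regions (13.2%). The lone library of replicate 2 was off to the side in all but fat body 2, and not in all but brain 2. In all but fat body 2, brain 2 summits lay 66 bp (63 to 69) from brain 1 and 91 bp (86 to 95) from fat body 1, themselves 36 bp apart. In all but brain 2, fat body 2 lay 38 bp (34 to 43) from fat body 1 and 68 bp (60 to 75) from brain 1. Brain 1 and fat body 1 were 40 bp apart there (34 to 47), so fat body 2 was as near to fat body 1 as brain 1 was.

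The 14 regions on unplaced sequences lay on 11 of the 180 such sequences with a peak. Their median fold was 9.09 (6.42 to 29.6) in brain 2, 6.50 (4.92 to 10.9) in fat body 1 and 16.3 (10.2 to 40.8) in fat body 2, against 6.22, 3.79 and 10.3 over all 1766 regions. By percentile, the measure of strength used above, their medians were 79.1 (23.7 to 99.1), 50.1 (18.6 to 84.4) and 67.4 (29.4 to 98.7) in the same order. These wide intervals hold the medians of all 1766 regions, 57.1, 43.4 and 62.0. Unplaced sequences held 0.793% of the 1766 regions (0.434 to 1.33) and 3.14% (2.66 to 3.68) of the regions in brain 2 and fat body 2 alone. In the other classes with fat body 1 the share was 0.372% (all 4 lists), 0.199% (both fat body lists alone), 0.349% (all but fat body 2) and 0.820% (all but brain 2). The 1766 regions were thus not low among classes with fat body 1. Of the 183 regions in all but fat body 1, 0 were on unplaced sequences.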
